A study of Mus musculus with 6 samples.

Results

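The genes described here are Nrxn2 and Nrxn3, which encode neurexins, Nlgn1, Nlgn2 and Nlgn3, which encode neuroligins, and Lrrtm1, Lrrtm2, Lrrtm3 and Lrrtm4, which encode leucine-rich repeat transmembrane proteins of neurons. They were taken by symbol through the mouse GENCODE M21 annotation, and all 9 were found among the 36008 genes of the deposited gene table, with 65 of the 118783 transcripts quantified. RNA was measured in whole hippocampus of female B6J mice 2 weeks old, 3 wild type (WT) and 3 with Prmt9 deleted in the whole body (KO). The KO mice were bred by crossing a floxed Prmt9 allele to CMV-Cre, a transgene active in most tissues and in the germline, and the WT mice were littermates of the same sex. PRMT9 is an arginine methyltransferase that modifies the splicing factor SF3B2, and the study asked which hippocampal transcripts and splice forms differ when it is missing. Polyadenylated RNA was sequenced from each mouse separately, and levels are given in TPM, a scale corrected for transcript length and for library size.

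Neurexins sit on the presynaptic membrane and bind neuroligins and LRRTM proteins on the postsynaptic side, so that the adhesion pairs span the synaptic cleft. Each neurexin gene makes a long alpha form from an upstream promoter and a short beta form from a promoter inside the gene, and alternative splicing at a few conserved sites adds or removes short stretches of protein. Splice site 4 (SS4) is the best known of them: its exon changes which postsynaptic partners can bind, and LRRTM1 and LRRTM2 bind neurexins that lack it. Neuroligins carry their own inserts, A and B, with B found in NLGN1. In the brain NLGN1 is found mainly at excitatory synapses and NLGN2 mainly at inhibitory ones, while LRRTM proteins act at excitatory synapses.

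The SS4 exon of Nrxn3 and the inserts of the neuroligins are printed because they are the stretches whose inclusion is given for these genes. All are coding in every transcript that includes them, and each has a length that is a multiple of 3, so that its inclusion keeps the reading frame. Sequences were read from the GENCODE M21 transcripts on GRCm38, from 5′ to 3′ on the strand of the gene. The SS4 exon of Nrxn3, of 90 bases, is at chr12:90199147-90199236 (+), and it is printed alone and in capitals throughout.
Nrxn3 SS4 exon: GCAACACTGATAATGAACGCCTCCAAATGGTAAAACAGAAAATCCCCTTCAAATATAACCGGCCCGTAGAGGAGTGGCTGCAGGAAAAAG

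The insert A exon of Nlgn1 (chr3:25920178-25920237, -) and the second of the 2 exons of 60 bases in Nlgn3 (chrX:101307075-101307134, +) had the same base at 43 of 60 positions (71.7%), marked by capitals.
Nlgn1 insert A exon: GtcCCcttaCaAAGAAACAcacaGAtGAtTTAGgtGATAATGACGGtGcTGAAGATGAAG
Nlgn3 second insert A exon: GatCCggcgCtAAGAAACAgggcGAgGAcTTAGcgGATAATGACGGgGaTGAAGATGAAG
The first of these Nlgn3 exons (chrX:101303072-101303131, +) shared only 19 of 60 positions with the second. In the lines that follow, capitals mark the insert and lower case the 15 coding bases on either side in a transcript that includes it. The Nlgn2 insert A exon is at chr11:69830563-69830613 (-), and the Nlgn1 insert B is a stretch of 27 bases at chr3:25439865-25439891 (-) added at an alternative 5′ splice site.
Nlgn3 first insert A exon: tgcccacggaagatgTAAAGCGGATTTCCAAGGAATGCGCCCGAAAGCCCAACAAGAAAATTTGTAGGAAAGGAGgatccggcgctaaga
Nlgn2 insert A exon: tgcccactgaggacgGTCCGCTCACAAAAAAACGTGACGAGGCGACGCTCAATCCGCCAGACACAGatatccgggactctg
Nlgn1 insert B: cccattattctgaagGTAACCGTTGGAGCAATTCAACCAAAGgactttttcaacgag

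The libraries held 194098391 to 286771677 estimated counts each, of which 184393 to 282190 fell on the 9 genes. Prmt9 was at 11.8, 15.2 and 15.0 TPM in WT and 3.93, 4.61 and 4.67 TPM in KO, in the direction of the labels, although its log2 fold change of -1.71 had an adjusted p of 0.032 in edgeR's quasi-likelihood test and so missed the study's limit of 0.01. Without the mice numbered 1 its adjusted p was 0.0012, which passed. The mice numbered 1 of both genotypes stood apart from the other 4. The leading principal component, with 79.5% of the variance of log2 expression, put WT1 at 55.1 and KO1 at 37.7 and the other mice between -25.6 and -20.0. In WT1, 37.4% of transcripts had no count, against 22.8% to 24.8% in the other mice. The mean number of bases lost to fragment length per transcript was 191 in WT1 and 175 in KO1, against 166 to 169 in the others. Retained-intron transcripts held 5.71% of TPM in WT1 and 6.45% in KO1, against 7.32% to 7.69% in the others. The summed level of 4 choroid plexus markers, all measured, was 7252 TPM in WT1 and 607 to 3326 TPM in the others. The summed level of 5 oligodendrocyte lineage markers, all measured, was 1756 TPM in WT1 and 937 TPM in KO1 against 6716 to 9587 TPM in the others. That of 5 excitatory neuron markers, which define the tissue, was 1711 and 1810 TPM in WT1 and KO1 and 2777 to 2946 TPM in the others. The part of these differences in the results was not tested, and results that rest on the mice numbered 1 are given with and without them. In whole tissue, fewer cells of a type and less RNA per cell cannot be told apart.

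The levels of the 9 genes overlapped between WT and KO mice, and no gene passed the test. None of the 9 was called in edgeR's quasi-likelihood test (adjusted p below 0.01 and fold change above 1.5), as was the case for 0% of the 20298 genes tested. None had an unadjusted p below 0.05, against 1.24% of all genes. Their log2 fold changes (KO over WT, on library-normalized counts) ran from -0.09 for Nlgn2 to 0.12 for Lrrtm3, with a median of 0.02 beside -0.01 for all genes, and every adjusted p was 0.9998. In no gene were the WT and KO TPM values apart, while the groups did not overlap in 6.67% of the genes tested. WT1 was the lowest of the 6 mice for 8 of the 9 genes, all but Nrxn2.

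**Figure D1:**
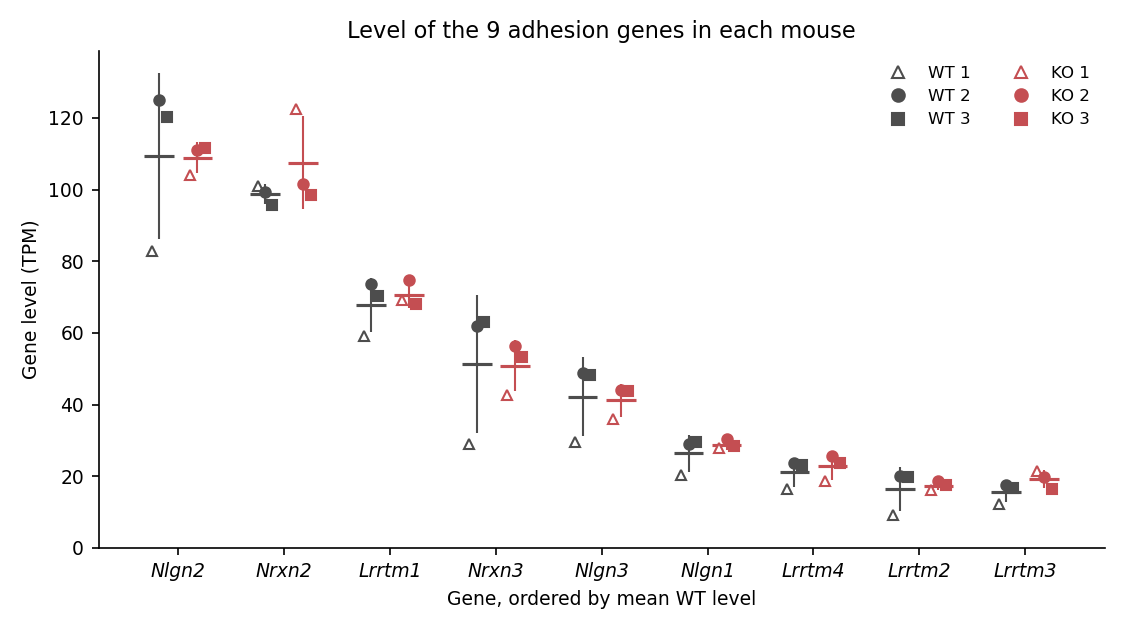
Level of each gene in TPM (vertical axis) in WT (grey) and KO (red) mice, with genes ordered by their mean WT level. Points are mice, with open triangles for the mice numbered 1, horizontal lines are means and vertical lines 1 SD (n = 3); WT and KO values overlap for all 9 genes and WT1 lies lowest for all but Nrxn2.

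Among the neurexins, Nrxn2 was at 101, 99.3 and 95.6 TPM in WT and 122, 102 and 98.4 TPM in KO, with KO1 highest. Its mean was 98.7 ± 2.78 TPM in WT and 107 ± 13.0 TPM in KO (SD, n = 3; exact permutation p = 0.4, where 0.1 is the smallest that 3 against 3 mice allow). Nrxn3 was at 29.0, 61.9 and 62.9 TPM in WT and 42.8, 56.4 and 53.2 TPM in KO, so that the mice numbered 1 were the lowest of their genotype. Its means were 51.3 ± 19.3 and 50.8 ± 7.13 TPM (exact permutation p = 1). Without the mice numbered 1, Nrxn3 was at 62.4 TPM in WT and 54.8 TPM in KO on average, with the values apart, and its log2 fold change was -0.16 (unadjusted p 0.0077, adjusted p 0.17 in edgeR).

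Among the neuroligins, Nlgn2 was the most abundant of the 9 genes, at 82.8, 125 and 120.3 TPM in WT and 104, 111 and 112 TPM in KO. WT1 was far below the other WT mice, and the KO mice lay between. Nlgn3 was at 29.6, 48.9 and 48.1 TPM in WT and 35.8, 44.0 and 43.7 TPM in KO, again with the mice numbered 1 lowest. Nlgn1 was at 20.5, 29.0 and 29.6 TPM in WT and 27.7, 30.3 and 28.3 TPM in KO. The exact permutation p was 1 for Nlgn2, 1 for Nlgn3 and 0.7 for Nlgn1. Without the mice numbered 1 the Nlgn2 mean was 123 TPM in WT and 111 TPM in KO (log2 fold change -0.13, unadjusted p 0.0090 in edgeR), and the Nlgn3 mean was 48.5 TPM in WT and 43.8 TPM in KO (log2 fold change -0.10, unadjusted p 0.030). Their adjusted p was 0.18 and 0.26.

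Of the LRRTM genes, Lrrtm1 was the highest, at 59.2, 73.6 and 70.4 TPM in WT and 69.2, 74.6 and 68.0 TPM in KO. Lrrtm4, whose protein binds heparan sulfate chains of presynaptic proteins, was at 16.5, 23.7 and 23.1 TPM in WT and 18.6, 25.8 and 23.7 TPM in KO. Lrrtm2 was at 9.25, 19.9 and 19.8 TPM in WT and 16.0, 18.5 and 17.6 TPM in KO, with WT1 below all other mice. Lrrtm3 was at 12.3, 17.7 and 16.6 TPM in WT and 21.3, 19.9 and 16.4 TPM in KO. The mean of Lrrtm3 was 15.5 ± 2.85 TPM in WT and 19.2 ± 2.55 TPM in KO (SD, n = 3), a difference larger than either SD, and it was 17.2 and 18.1 TPM without the mice numbered 1. The WT and KO values overlapped in each of these genes, with exact permutation p-values of 0.8, 0.5, 1 and 0.3 for Lrrtm1, Lrrtm4, Lrrtm2 and Lrrtm3. The Lrrtm3 transcript with the highest mean was Lrrtm3-202, a processed transcript of 545 bases without a coding part. It was at 5.43, 7.24 and 6.25 TPM in WT and 10.4, 8.13 and 7.52 TPM in KO. The only coding transcript of the gene, Lrrtm3-201, was at 6.78, 5.25 and 5.36 TPM in WT and 6.58, 6.76 and 5.20 TPM in KO.

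With the mice numbered 1 left out, 5 of the 9 genes had WT and KO values apart, 4 lower in KO (Nrxn3, Nlgn2, Nlgn3 and Lrrtm2) and 1 higher (Lrrtm4), beside 48.3% of all genes with 2 mice left in each group. In the same fit 3 of the 9 had an unadjusted p below 0.05, beside 16.4% of all genes, and none was called, beside 0.00489% of all. The 3 of 9 is a larger share than that of all genes, and the lowest adjusted p among them was 0.17.

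The order of the genes by mean WT level was Nlgn2, Nrxn2, Lrrtm1, Nrxn3, Nlgn3, Nlgn1, Lrrtm4, Lrrtm2 and Lrrtm3. Of the 8 neighbours in this order only Nrxn2 and Lrrtm1 had WT ranges apart. Nlgn2 exceeded Nrxn2 in 4 of the 6 mice, Nrxn3 exceeded Nlgn3 in 5, and Lrrtm2 exceeded Lrrtm3 in 3, while the other 5 pairs had the same order in all 6 mice. By Pearson correlation of log2 expression over the 6 mice, the genes most like Nrxn2 among 11794 were Ska2, Gsdme and Gm15387 (r = 0.997 each). Those most like Nlgn2 were Ube2d1, Dcaf12 and Acly (r = 0.98, 0.98 and 0.98), and those most like Lrrtm1 were Cog6, Hspa13 and Dnaja2 (r = 0.99, 0.98 and 0.98). All these points share the 6 libraries, 2 of which stood apart.

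The neurexin genes differed in the balance of transcripts counted as alpha and beta. On the TPM scale, which corrects for length, more Nrxn2 RNA was assigned to beta than to alpha transcripts in every mouse. Nrxn3 RNA of the 2 forms was mostly alpha in every mouse. On estimated counts, given below, the order for Nrxn2 was the reverse. An alpha transcript was defined as protein coding with at least 3000 coding bases, and a beta transcript as a complete coding transcript with fewer coding bases that starts inside the gene. By this rule Nrxn2 had 6 alpha and 2 beta transcripts and Nrxn3 had 3 and 2. The beta transcript Nrxn2-202 ends at chr19:6533217, beyond the alpha transcripts Nrxn2-204 (6532278) and Nrxn2-216 (6532511). The effect of this on how reads were assigned was not tested. Summed alpha RNA of Nrxn2 was 26.1, 27.6 and 26.1 TPM in WT and 37.1, 27.9 and 28.1 TPM in KO. Its beta RNA was 39.8, 41.4 and 38.5 TPM in WT and 43.6, 38.1 and 37.5 TPM in KO. The alpha values of KO exceeded those of WT in all mice, by little in KO2 and KO3, and the beta values overlapped.

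The beta share of alpha and beta TPM in Nrxn2 was 0.604, 0.600 and 0.596 in WT and 0.540, 0.577 and 0.572 in KO. All KO mice were below all WT mice, with KO1 the lowest. The mean was 0.600 ± 0.0042 in WT and 0.563 ± 0.020 in KO (SD, n = 3), a difference of -0.037 with the smallest p that the exact permutation test allows (0.1), and of -0.023 without the mice numbered 1. On estimated counts, to which the longer alpha transcripts add more reads per molecule, the Nrxn2 beta share was 0.495, 0.489 and 0.485 in WT and 0.418, 0.462 and 0.454 in KO, so that alpha exceeded beta in every mouse on that scale and KO was again below WT. The alpha sum includes Nrxn2-201, described below, at 0.00 to 0.66 TPM in WT and 3.61 to 9.11 TPM in KO. The Nrxn2 beta share is therefore not separate from the level of Nrxn2-201, and it was not computed without that transcript. In Nrxn3 the beta share was 0.0452, 0.106 and 0.112 in WT and 0.0939, 0.119 and 0.115 in KO. Here the groups overlapped, with WT1 well below the other mice (exact permutation p = 0.5). Alpha RNA of Nrxn3 was 20.4, 30.1 and 30.0 TPM in WT and 24.9, 28.0 and 26.3 TPM in KO, and beta RNA 0.964, 3.59 and 3.80 TPM in WT and 2.58, 3.80 and 3.43 TPM in KO. Transcripts of neither form took 0.306 to 0.350 of Nrxn2 TPM and 0.265 to 0.464 of Nrxn3 TPM. For Nrxn2 these are 6 processed transcripts, 3 retained introns and 1 coding transcript of 648 bases, and they took 0.0579 to 0.0676 of its estimated counts. For Nrxn3 they include Nrxn3-213 and Nrxn3-208, annotated as targets of nonsense-mediated decay, with 3027 and 4173 coding bases, which the rule leaves out of alpha.

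**Figure D2:**
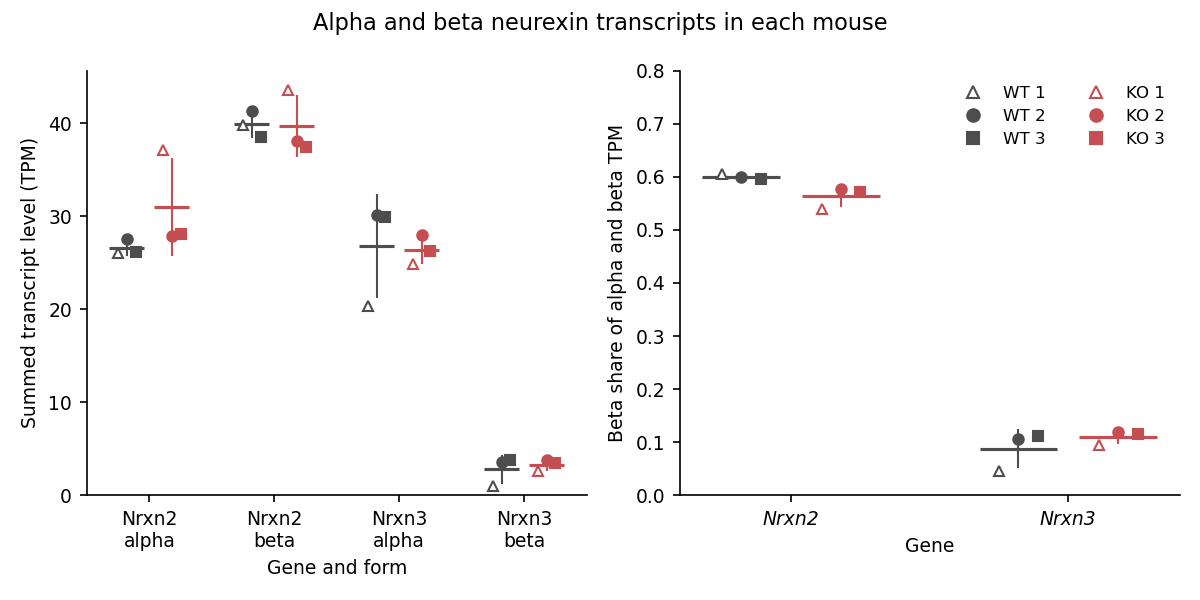
Left, summed level of alpha and beta transcripts of Nrxn2 and Nrxn3 in TPM; right, beta share of alpha and beta TPM. Points are mice (WT grey, KO red, open triangles for the mice numbered 1), with the mean and 1 SD (n = 3); the Nrxn2 beta share was 0.596 to 0.604 in WT and 0.540 to 0.577 in KO, and the Nrxn3 share 0.0452 to 0.119 over all mice.

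In the main fit the use of the transcripts of Nrxn2 differed between WT and KO, and several other fits did not call this difference. In a test of relative transcript use within each gene (edgeR's diffSpliceDGE with the Simes method), Nrxn2 was called at an adjusted p of 0.0018, as 1 of the 9 genes, where 0.17% of the 13545 genes tested were called. No other member had an unadjusted p below 0.05, beside 1.73% of all genes. The call rested on Nrxn2-201, an alpha transcript of 22 exons with 4509 coding bases (chr19:6418738-6533216), whose relative use was higher in KO by 3.83 on the log2 scale (adjusted p 0.00068 over the 68957 transcripts tested, of which 0.0348% were called). Nrxn2-201 was at 0.00, 0.61 and 0.66 TPM in WT and 9.11, 3.61 and 4.46 TPM in KO. The estimated counts behind these were below the limit of 3 counts in WT1 (0.0039 TPM), 477 and 479 in WT2 and WT3, and 7091, 3308 and 3658 in KO. Every KO mouse was above every WT mouse, with the lowest in WT1 and the highest in KO1, the libraries that stood apart. Without them the means were 0.64 TPM in WT and 4.04 TPM in KO, a ratio of 6.36, and the difference in use was 2.65 (adjusted p 6.2e-17), in a fit that called 0.437% of all transcripts and, with Nrxn2 among them, 1.83% of all genes.

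The gene call for Nrxn2 was not kept in all fits. With the replicate number as a block the adjusted p of the gene was 0.021 and it was not called, in a fit that called 0.096% of all genes. The gene was also not called when any 1 mouse other than WT1 was left out, with adjusted p-values of 0.049 without WT2, 0.020 without WT3, 0.090 without KO1, 0.029 without KO2 and 0.037 without KO3, and it was 7.4e-08 without WT1. Nrxn2-201 itself was still called under the block (adjusted p 0.0089), as 0.029% of all transcripts were. It was also called without WT1 (2.4e-08), WT3 (0.0083) or KO2 (0.0099), and not called without WT2 (0.020), KO1 (0.033) or KO3 (0.016). As a level of its own, Nrxn2-201 was not called (log2 fold change 3.90 with an SE of 1.54 and an adjusted p of 1 in edgeR), like 0% of the 75554 transcripts tested, and 2 of the 63 member transcripts tested had an unadjusted p below 0.05, beside 1.61% of all.

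Nrxn2-216 lay in the opposite direction. It was at 9.58, 8.49 and 8.95 TPM in WT and 5.59, 6.97 and 6.32 TPM in KO, all KO mice below all WT mice. Its relative use was lower by 0.70 on the log2 scale and did not pass the test (unadjusted p 0.17). Nrxn2-201 and Nrxn2-216 have the same coding exons and so encode the same alpha neurexin. All 5001 bases of Nrxn2-216 are part of the 6059 bases of Nrxn2-201. The 1058 bases that Nrxn2-201 has beyond them are 353 before the start codon, in an upstream first exon and an extension of the next one, and 705 after the stop codon. All 1058 also occur in other Nrxn2 transcripts, so no base is found in Nrxn2-201 alone, and its level depends on how reads were assigned among overlapping transcripts. That assignment carries an error which the deposited values do not give.

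**Figure D3:**
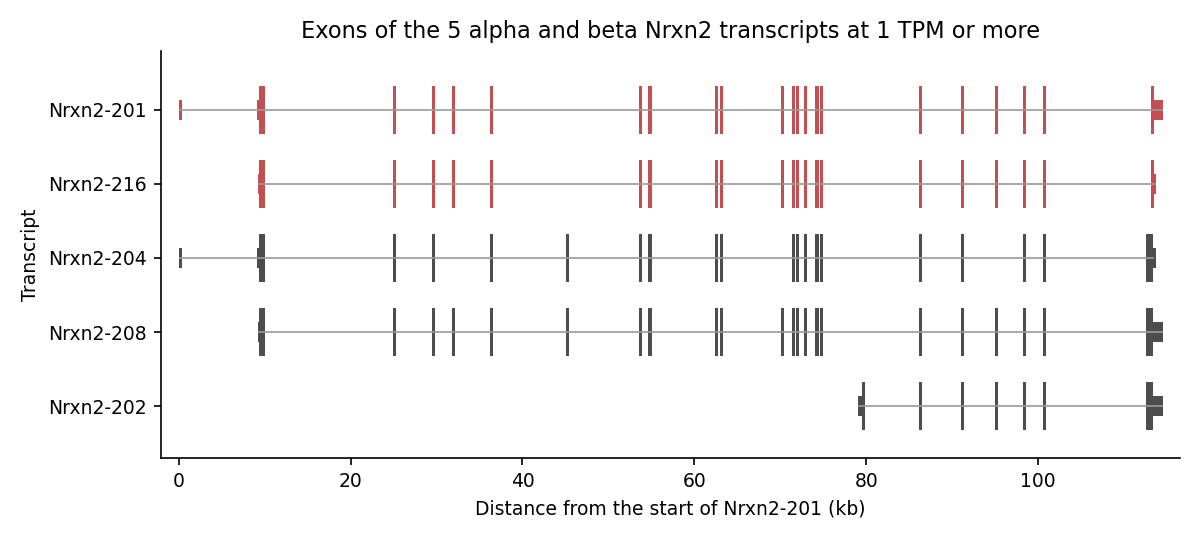
Exons of the 5 alpha and beta Nrxn2 transcripts with a mean of at least 1 TPM, by distance in kb from the start of Nrxn2-201; tall boxes are coding and low boxes are not, and very short exons are widened to be visible. Nrxn2-201 and Nrxn2-216 (red) have the same coding exons and differ at both ends, and the beta transcript Nrxn2-202 starts 79.1 kb into the gene.

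As a sum, Nrxn2-201 and Nrxn2-216 were at 9.58, 9.10 and 9.61 TPM in WT and 14.7, 10.6 and 10.8 TPM in KO. The KO values were above the WT values in all mice, with KO1 furthest. Nrxn2-201 made up 0.00, 0.067 and 0.069 of this sum in WT and 0.620, 0.341 and 0.414 in KO. Of all alpha TPM, the 4 transcripts that begin at the upstream first exon made up 0.590, 0.649 and 0.625 in WT and 0.796, 0.717 and 0.739 in KO. The 2 alpha transcripts that begin at the next exon, 9.19 kb and 9.20 kb downstream, were at 10.7, 9.67 and 9.81 TPM in WT and 7.56, 7.90 and 7.35 TPM in KO. Neither measure overlapped between the groups (exact permutation p = 0.1 for each, the smallest possible). These sums were chosen after the values were seen. Each holds Nrxn2-201 or Nrxn2-216, so its p-value is not separate from the values of those transcripts. Of the other transcripts that begin upstream, Nrxn2-204 averaged 16.1 TPM in WT and 17.7 TPM in KO, Nrxn2-205 was at 0.0753 TPM or less and Nrxn2-218 at 0. The other one that begins at the next exon, Nrxn2-208, averaged 1.05 TPM in WT and 1.31 TPM in KO.

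**Figure D4:**
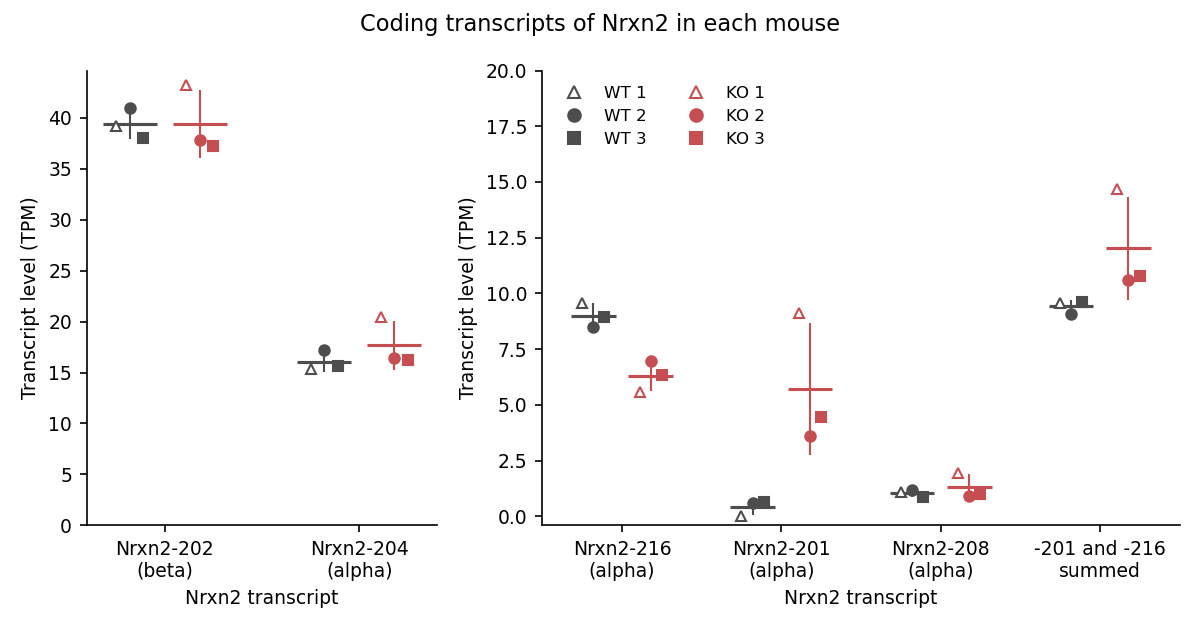
Level in TPM of the coding Nrxn2 transcripts with a mean of at least 1 TPM that are alpha or beta, and of Nrxn2-201 and Nrxn2-216 summed; the left and right panels have different scales. Points are mice (WT grey, KO red, open triangles for the mice numbered 1), with the mean and 1 SD (n = 3); Nrxn2-201 was at 0.00 to 0.66 TPM in WT and 3.61 to 9.11 TPM in KO, and Nrxn2-216 at 8.49 to 9.58 and 5.59 to 6.97 TPM.

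No other transcript of Nrxn2 was called. The beta transcript Nrxn2-202, the most abundant of the gene, was at 39.2, 40.9 and 38.1 TPM in WT and 43.2, 37.8 and 37.2 TPM in KO. Its share of Nrxn2 TPM was 0.399 ± 0.012 in WT and 0.368 ± 0.013 in KO, with the groups apart. Nrxn2-204, the most abundant alpha transcript, was at 15.4, 17.3 and 15.6 TPM in WT and 20.5, 16.4 and 16.2 TPM in KO, and its share was 0.163 in WT and 0.164 in KO. Over all 9 genes, 46 transcripts had a mean of at least 1 TPM, and the shares of 5 did not overlap between the groups, beside 9.12% of 44089 transcripts over all genes. They were Nrxn2-201, Nrxn3-202 and Lrrtm1-201, which were higher in KO, and Nrxn2-216 and Nrxn2-202, which were lower.

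Nrxn3 was dominated by the alpha transcript Nrxn3-205, with 4713 coding bases, at 19.5, 26.9 and 26.8 TPM in WT and 23.3, 25.6 and 24.3 TPM in KO. Its share of the gene was 0.511 in WT and 0.485 in KO, with the groups overlapping. The next was Nrxn3-213, annotated as a target of nonsense-mediated decay, with a mean share of 0.163 in WT and 0.160 in KO. The beta transcript Nrxn3-202 was at 0.445, 1.78 and 2.39 TPM in WT and 1.84, 2.47 and 2.16 TPM in KO. Its share of Nrxn3 TPM was 0.015, 0.029 and 0.038 in WT and 0.043, 0.044 and 0.041 in KO, with all KO mice above all WT mice. The difference in use did not pass the test (unadjusted p 0.54).

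For inclusion of the SS4 exon, WT and KO values overlapped in both genes. Inclusion (percent spliced in, PSI, here on a scale from 0 to 1) was computed from the TPM of the annotated transcripts with and without each exon that share the splice sites on both sides of it. For Nrxn2 SS4, PSI was 0.758, 0.744 and 0.751 in WT and 0.742, 0.747 and 0.748 in KO, a difference of -0.0052. All 6 mice lay within a narrow range. For Nrxn3 SS4, PSI was 0.818, 0.770 and 0.761 in WT and 0.818, 0.771 and 0.768 in KO, a difference of 0.0028, with the mice numbered 1 highest in both genotypes. In limma, fitted to log2 of the TPM with the exon over the TPM without it, the adjusted p was 1 for both, and none of the 31 member events tested was called, as was the case for 0% of the 18606 events of all genes. None of the 31 had an unadjusted p below 0.05, beside 3.31% of all events. From these libraries the paper reports many altered splicing events, found with rMATS-turbo on reads rather than on the TPM of annotated transcripts. The test used here called no event of any gene, so it cannot show that a member exon did not change. Most Nrxn3 TPM without SS4 came from Nrxn3-213, annotated as a target of nonsense-mediated decay, with means of 8.48 TPM in WT and 8.22 TPM in KO. The other transcript without it, the beta transcript Nrxn3-203, was at 1.24 and 1.11 TPM. Nrxn3-208, also annotated as a target of nonsense-mediated decay, includes SS4 and was at 5.43 and 5.31 TPM.

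Among the transcripts counted as alpha or beta, the annotation ties SS4 to the form in both genes. In Nrxn2 the exon was in nearly all beta RNA, with a share of 0.986 to 0.990 in WT and 0.992 to 0.993 in KO, so that the groups were apart by a mean of 0.0040. In its alpha RNA, where Nrxn2-204 alone lacks it, the share was 0.410, 0.374 and 0.402 in WT and 0.449, 0.413 and 0.423 in KO. The KO values were above the WT values in all mice, by 0.033 on average. The same transcripts decide an exon of 72 bases (chr19:6450528-6450599) and one of 27 bases (chr19:6488784-6488810) of Nrxn2, which therefore had these same values. They were the 2 of 31 events with groups apart, beside 11.1% of all events, and their unadjusted p was 0.26. Nrxn2-201 is among the alpha transcripts with these exons and SS4, so these values are not separate from its level. In Nrxn3 all alpha transcripts include SS4, and within its beta RNA the share was 0.462, 0.497 and 0.629 in WT and 0.711, 0.651 and 0.630 in KO, on levels of less than 4 TPM. These groups were also apart, with KO3 only just above WT3 (exact permutation p = 0.1, the smallest possible). The shares within a form were added after the values were seen.

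For the inserts of the neuroligins, too, WT and KO values overlapped and no event was called. In Nlgn1 the annotated transcripts carry insert A and insert B together or lack both, so they have a single value, at 0.587, 0.501 and 0.485 in WT and 0.527, 0.522 and 0.494 in KO. About as much Nlgn1 RNA had the inserts as lacked them in every mouse. Insert A of Nlgn2 had a PSI of 0.949, 0.949 and 0.934 in WT and 0.956, 0.945 and 0.947 in KO. Here Nlgn2-201 and Nlgn2-202 include it and Nlgn2-203 alone lacks it. The retained intron Nlgn2-204 does not span the exon and is left out, with a mean share of Nlgn2 TPM of 0.125 in WT and 0.152 in KO. The first insert A exon of Nlgn3 was included at 0.131, 0.247 and 0.238 in WT and 0.186, 0.239 and 0.228 in KO. Its second insert A exon was included at 0.769, 0.580 and 0.561 in WT and 0.764, 0.613 and 0.629 in KO. These values leave out transcripts with other neighbouring splice sites, Nlgn3-203 for the first exon and Nlgn3-206 for the second. Over all transcripts that span the exon, the first was included at 0.104, 0.160 and 0.149 in WT and 0.149, 0.161 and 0.157 in KO. The second was then included at 0.793, 0.647 and 0.627 in WT and 0.7996, 0.676 and 0.687 in KO, and for the other cassettes the transcripts were the same. For both Nlgn3 exons in the shared-site values the mice numbered 1 stood apart in the same direction in WT and KO, and WT and KO values overlapped. The mean differences were -0.010 for Nlgn1, 0.0054 for Nlgn2, and 0.013 and 0.032 for the first and second exon of Nlgn3.

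**Figure D5:**
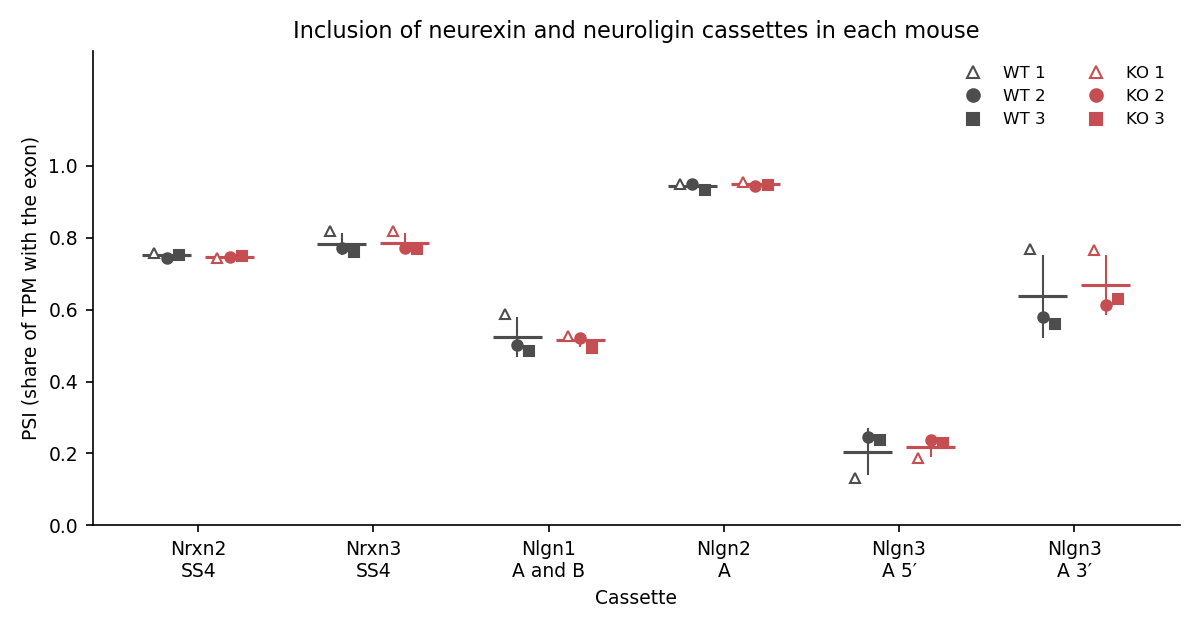
Inclusion (PSI, 0 to 1) of the SS4 exons of Nrxn2 and Nrxn3 and of the inserts of Nlgn1, Nlgn2 and Nlgn3 in each mouse, from the TPM of transcripts that share the splice sites on both sides. Points are mice (WT grey, KO red, open triangles for the mice numbered 1), with the mean and 1 SD (n = 3); WT and KO overlap for all 6 measures, from 0.131 to 0.247 for the first Nlgn3 exon to 0.934 to 0.956 for Nlgn2.

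No neuroligin transcript was called in the test of use. Nlgn2-201 and Nlgn2-202, which have the same 2508 coding bases and different starts, had mean shares of 0.447 and 0.379 in WT and 0.416 and 0.389 in KO. In Nlgn1, Nlgn1-201 (with both inserts) was at 9.94, 11.4 and 11.3 TPM in WT and 11.99, 12.6 and 11.1 TPM in KO, and Nlgn1-203 (with neither) at 4.23, 12.8 and 14.1 TPM in WT and 9.53, 13.6 and 12.9 TPM in KO. Nlgn1-203 was lowest in the mice numbered 1. In Nlgn3 the leading transcript Nlgn3-201 was at 19.8, 20.7 and 19.4 TPM in WT and 18.1, 19.7 and 19.1 TPM in KO, while Nlgn3-203, a transcript of 1852 bases that lacks the second exon, was at 5.96, 16.1 and 16.8 TPM in WT and 6.81, 13.1 and 12.4 TPM in KO. The exons of Nlgn3 overlap those of a gene model on the same strand, Gm21986, so reads there may be split.

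Among the LRRTM genes, Lrrtm1 had 3 transcripts with the same coding length of 1566 bases. Lrrtm1-201, which has a further exon downstream and is annotated as a target of nonsense-mediated decay, was at 9.63, 13.7 and 12.4 TPM in WT and 14.6, 14.5 and 15.4 TPM in KO. Its share of Lrrtm1 TPM was 0.163, 0.186 and 0.177 in WT and 0.212, 0.195 and 0.226 in KO, all KO mice above all WT mice, and the difference in use did not pass the test (unadjusted p 0.50). Several short or alternative transcripts were listed at 0 in WT1 alone: Lrrtm2-203 was at 0.00, 5.90 and 6.79 TPM in WT and 4.15, 4.74 and 4.82 TPM in KO, and Lrrtm3-204, a retained intron, at 0.00, 4.60 and 4.75 TPM in WT and 3.67, 4.59 and 3.57 TPM in KO. In WT1, 13 of the 65 member transcripts had no count, against 1 or 2 in each other mouse. Lrrtm4-203 went the other way, at 2.83 TPM in WT1, 0.364 TPM in KO1 and 0.062 TPM or less in the others (unadjusted p 0.045 for its use, adjusted p 1), which with Nrxn2-201 made 2 of 63 member transcripts with an unadjusted p for use below 0.05, beside 1.07% of all.

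Genes that work with these adhesion proteins were counted as lists. None of the 18 partners tested (other neurexin or neuroligin ligands such as cerebellins and neurexophilins) was called, and the log2 fold changes ran from -0.45 to 0.72 with a median of 0.02. Of the 18, 2 had an unadjusted p below 0.05, beside 1.24% of all genes, both with a positive log2 fold change. Nxph3, a neurexophilin that binds alpha neurexins, was at 16.1, 21.9 and 22.9 TPM in WT and 32.7, 26.3 and 26.3 TPM in KO (log2 fold change 0.43, unadjusted p 0.029, adjusted p 0.9998), with the groups apart. Cbln4, a secreted cerebellin, was at 4.58, 7.04 and 5.68 TPM in WT and 11.1, 10.01 and 6.55 TPM in KO (log2 fold change 0.63, unadjusted p 0.042), with the groups overlapping. These 2 genes were named after their values were seen. None of the 17 intracellular scaffolds, 8 genes of proteolytic cleavage or 11 splicing regulators known to act on neurexin and neuroligin exons was called or had an unadjusted p below 0.05, with medians of -0.03, 0.00 and -0.03 beside -0.01 for all genes. In the test of transcript use, none of the 11, 17, 8 and 11 genes tested from these lists had an unadjusted p below 0.05, beside 1.73% of all genes.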

How the data were processed

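Per the labels and methods, the authors sequenced polyadenylated RNA (stranded kit) of 3 WT and 3 KO mice, 3 biological replicates per genotype, and quantified transcripts with kallisto (2 versions are stated; 0.46.0 in the submitters' processing notes). They deposited estimated counts and TPM per transcript and mouse, and gene TPM summed with tximport. The strand setting and transcript set are not given in the sources used here. Of the transcripts, 116515 of 118783 matched GENCODE M21 (GRCm38) by identifier and length. Estimated counts were rounded and summed per gene.

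Tests used edgeR 4.0.16 (TMM, filterByExpr, quasi-likelihood F test; diffSpliceDGE for transcript use), limma 3.58.1 (trend) for splicing events (a floor of 1 TPM per mouse, a pseudocount of 0.1 TPM and a mean PSI of 0.05 to 0.95), and exact two-sided permutation tests of single values, all with genotype only. DESeq2 1.42.0 was an alternative. The edgeR, limma and DESeq2 fits were checked on simulated data, and the permutation tests were not. The simulated data held no mice that stood apart, so the check does not cover that feature of these libraries. Adjusted p-values are Benjamini-Hochberg over all features tested. Events were built from annotated transcripts, since junction reads are not used here. Mice of one number deviated together from their group means (r = 0.78, 0.71 and 0.66 over 20298 genes for numbers 1, 2 and 3). So did WT3 with KO2 (0.72) and WT2 with KO3 (0.64), so these values do not show a pairing by number for numbers 2 and 3. The labels give the number but no pairing. The number was also fitted as a block. No replicate pair agreed within sampling noise.

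Members, lists and tests were chosen with earlier results of these data known. The text names all 9 genes and some, not all, of their 46 transcripts with a mean of at least 1 TPM. It also names member transcripts with an unadjusted p below 0.05 for use and tested events with groups apart. For the top member of each family it names the 3 genes of at least 5 TPM most like it. The 7 lists of cell type markers had 0 called genes. Intervals and limits cover counting error only, with 3 counts as the limit for a count of 0. The sequence of the Nrxn2 SS4 exon is not reported here.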

Additional observations from a re-analysis of the deposited data

How the results depend on the processing

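The counts of called members were 0 for gene level, transcript level and splicing events in every alternative run. The count of members called for transcript use was 1 (Nrxn2). It was 0 with the replicate block (adjusted p of Nrxn2 0.021), with at least 10 counts in every mouse (0.999997; Nrxn2-201 is then not tested), with the gene F test (1) and with protein-coding transcripts only (0.067), and 0 to 1 when 1 mouse was left out (7.4e-08 to 0.090). It stayed 1 with a term for the mice numbered 1, without both of them, with other size factors, without a filter and in limma's diffSplice (0.00022). Where no construction of the alternative shows it, the cause was not tested. The block changed no other call. Over all genes, the count called for use was 23, with 13 under the block, 52 with the term, 250 without both mice numbered 1, 36 without a filter, 1 with at least 10 counts in every mouse, 4 in limma, 13 for coding transcripts, and 9 to 142 without 1 mouse. DESeq2 called 112 transcripts and 2 genes where edgeR called 0, none of them a member.

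Log2 fold changes of genes that were not called changed sign as follows. In limma on log2(TPM + 1) and log2(TPM + 0.1) they were 0.058 and 0.061 for Nrxn3, 0.0166 and 0.0170 for Nlgn2, and 0.064 and 0.065 for Lrrtm1. Lrrtm1 was at 0.0067 without a filter, and Lrrtm2 at -0.072 without both mice numbered 1. Without 1 mouse the ranges were -0.102 to 0.195 for Nrxn2, -0.195 to 0.023 for Nrxn3, -0.031 to 0.053 for Lrrtm1, -0.068 to 0.113 for Lrrtm2 and -0.043 to 0.091 for Lrrtm4. The beta share difference of Nrxn2 stayed between -0.044 and -0.026 without 1 mouse, with Nrxn2-201 counted in each case. The difference of Nrxn3 stayed between 0.00014 and 0.034. Of 500 alternative values of transcript shares 491, and of 101 of the cassette inclusions 100, moved by less than 1 SD. That SD includes the mice numbered 1, and a move of less than 1 SD can change the sign. Without both mice numbered 1 the share difference went from -0.057 to 0.048 for Lrrtm2-201 and from 0.050 to -0.055 for Lrrtm2-203. It went from 0.025 to -0.048 for Lrrtm3-204 and from 0.040 to -0.0090 for Nlgn1-203, and these are not the only such shares. The KO minus WT share of Nrxn2-201 was 0.047, and 0.094 on estimated counts and 0.068 over coding transcripts, and that of Nrxn2-216 was -0.032, -0.054 and -0.042. The other shares that moved were of Lrrtm1-202, Nlgn2-203, Nlgn3-202, Nrxn2-209 and Nrxn3-202. Inclusion over all transcripts that span an exon was added after the data were seen, with differences of 0.018 and 0.032 for the 2 Nlgn3 exons. The error of assigning reads among transcripts is not given by the deposited values and was not measured.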
